A study of Homo sapiens with 12 samples.

Results

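CRISPLD2, OLFML3, RARRES2 and SUSD2 are 3 genes of secreted proteins and 1 gene of a cell surface protein whose RNA was far more abundant in KHM-5M cells given the ERK inhibitor GDC-0994 than in KHM-5M cells given its vehicle. They are 4 of the 58735 annotated genes in the deposited tables, and all 4 were among the 16218 genes tested after a filter on low counts, of which 13260 are protein coding. They were chosen by name as genes with a large difference between these KHM-5M groups, with no numerical threshold, so their values in that comparison are a description and were not tested. The measurement was RNA-seq of polyadenylated RNA from 2 human anaplastic thyroid carcinoma lines, cells of the undifferentiated and most aggressive form of thyroid cancer. The groups were KHM-5M with GDC-0994, KHM-5M with DMSO, TTA-1 with GDC-0994 and TTA-1 with DMSO, with 3 libraries each and 12 in all. GDC-0994 (ravoxertinib) was given at 1 µM, and both agents for 24 hours. The kinases it inhibits, ERK1 and ERK2 in the usual nomenclature, are the last step of the growth signal that RAS, RAF and MEK pass on, and the study asked how the inhibitor acts on cells with and without a BRAF mutation. KHM-5M was labelled BRAF V600E and was grown in RPMI-1640, and TTA-1 was labelled BRAF WT (wild type) and was grown in DMEM, both with fetal bovine serum. Each BRAF genotype is thus 1 cell line in 1 medium, and genotype, line and medium cannot be told apart. The labels do not say whether the 3 libraries of a group came from separate cultures, so p-values measure only the spread between these libraries.

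The 4 proteins have different roles outside or at the edge of the cell. CRISPLD2 is a secreted protein with a CAP domain, the fold shared by cysteine-rich secretory proteins, and LCCL domains. It binds bacterial lipopolysaccharide and is induced by glucocorticoids in airway smooth muscle. OLFML3 is a secreted glycoprotein with an olfactomedin domain, and its frog counterpart is a scaffold that brings together chordin, an inhibitor of bone morphogenetic proteins (BMPs), and the tolloid proteases that cut it. RARRES2 encodes chemerin, which is secreted as an inactive form, is trimmed at its end by extracellular proteases, and then attracts immune cells and acts on fat tissue through the receptor CMKLR1. It was first found as a gene that a synthetic retinoid induces in skin. SUSD2 is a membrane protein with a sushi domain that binds galectin-1 and marks mesenchymal stem cells of the endometrium.

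Total counts per library lay between 14952970 and 18389915. CPM below is the count scaled to a library size that TMM corrects for composition, and FPKM is the authors' deposited value per kilobase of gene length. Values after ± are the SD over 3 libraries for a level and the standard error for a log2 fold change. A gene was called at an edgeR quasi-likelihood p below 0.05 after Benjamini-Hochberg adjustment over the 16218 genes, and only such a gene is said to have risen or fallen. Of 10 genes known to follow ERK activity, 9 fell and 1 rose in KHM-5M, where 25.1% of all genes tested fell and 24.6% rose. In TTA-1, 8 of the 10 fell and none rose, beside 2.24% of genes falling and 1.18% rising. The gene that rose in KHM-5M was EPHA4, with at most 4 counts in a KHM-5M DMSO library. The list of these 10 genes was chosen with earlier results of these data known. Among thyroid genes, TG, SLC5A5 and DUOX2, which make thyroglobulin, the iodide transporter and a hydrogen peroxide source of hormone synthesis, had no count in the KHM-5M libraries, and DUOX2 had none in the TTA-1 libraries.

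Promoter sequences are shown for the 3 genes with an entry in the RefSeq table (GRCh38.p14), so that the start regions of genes chosen for a large difference in KHM-5M can be compared. Each runs 5′ to 3′ on the gene's own strand over 300 bases, with 250 before the RefSeq start site and 50 after it. SUSD2 is named only. Capitals mark the GC box GGGCGG or its reverse complement. The intervals are chr16:84819735-84820034 on the plus strand, chr1:113979224-113979523 on the plus strand and chr7:150341580-150341879 on the minus strand, in the order printed.
CRISPLD2: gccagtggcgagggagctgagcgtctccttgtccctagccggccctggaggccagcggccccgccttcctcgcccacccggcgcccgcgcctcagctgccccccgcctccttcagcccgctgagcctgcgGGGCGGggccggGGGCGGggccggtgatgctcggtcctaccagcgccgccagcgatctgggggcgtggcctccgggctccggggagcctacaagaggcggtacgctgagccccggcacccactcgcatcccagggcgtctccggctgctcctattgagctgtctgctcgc
OLFML3: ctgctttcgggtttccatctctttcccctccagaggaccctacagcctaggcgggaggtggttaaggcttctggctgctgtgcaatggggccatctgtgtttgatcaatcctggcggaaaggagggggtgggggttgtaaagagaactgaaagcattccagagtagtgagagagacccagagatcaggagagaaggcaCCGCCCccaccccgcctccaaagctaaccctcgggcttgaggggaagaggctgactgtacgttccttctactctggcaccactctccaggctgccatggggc
RARRES2: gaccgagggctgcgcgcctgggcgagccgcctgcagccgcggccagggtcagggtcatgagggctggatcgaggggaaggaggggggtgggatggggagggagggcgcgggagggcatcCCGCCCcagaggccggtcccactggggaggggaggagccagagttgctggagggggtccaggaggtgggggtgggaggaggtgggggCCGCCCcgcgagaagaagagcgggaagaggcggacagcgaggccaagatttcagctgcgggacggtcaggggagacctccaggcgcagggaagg

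The CRISPLD2 and RARRES2 promoters were rich in G and C, at 75.3% and 73%, against 58% in the OLFML3 promoter and a median of 58.7% over 35116 promoters of the same length. They held 31, 21 and 7 CpG dinucleotides in the order CRISPLD2, RARRES2 and OLFML3, against a median of 14. Of the 10 motifs searched on both strands, only the GC box was found, beginning 120 and 108 bases before the start site in CRISPLD2, 131 and 44 bases before it in RARRES2, and 52 bases before it in OLFML3. The GC box occurred in 45% of all promoters. The other motifs were the AP-1 site TGANTCA (7.71% of all promoters), the cyclic AMP response element TGACGTCA (1.85%), the ETS site CCGGAA (17.2%), the FOXO site GTAAACA (3.42%) and the E-box CACGTG (7.26%). The list also held the retinoid receptor core site AGGTCA (13.8%), the palindromic glucocorticoid receptor site (0.00285%), CCAAT (34.6%) and TATAAA (11.5%). The letters of these 9 motifs did not occur in the 3 windows, which says nothing about binding elsewhere. No 2 of the motifs overlapped in the printed sequences.

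CRISPLD2 (ENSG00000103196) lies at chr16:84819984-84920768 on the plus strand of GRCh38, with 7965 exonic bases in 11 annotated transcripts. It had 77.1, 69.4 and 75.4 CPM in the KHM-5M GDC-0994 libraries, replicates 1, 2 and 3, against 2.42, 3.12 and 2.87 CPM in KHM-5M DMSO. The lowest treated library was 22.3 times the highest control library, and the groups did not overlap. In counts this was 1462, 1255 and 1229 in KHM-5M GDC-0994 libraries and 43, 54 and 50 in KHM-5M DMSO libraries. The log2 fold change in KHM-5M was 4.72 ± 0.15 (95% interval 4.41 to 5.03), or 26.4-fold, the rank 24 of 16218 genes counted from the largest increase. In TTA-1 the gene had 5.07, 3.94 and 5.53 CPM with GDC-0994 and 4.82, 4.34 and 6.06 CPM with DMSO, and these ranges overlapped. CRISPLD2 did not pass the test in TTA-1, with a log2 fold change of -0.07 ± 0.16 and an interval of -0.41 to 0.27 (edgeR, adjusted p = 0.885). Without TTA-1 DMSO replicate 3 this value was 0.073, and without TTA-1 GDC-0994 replicate 2 it was 0.052, so its sign depended on either library. Levels in the KHM-5M controls were below those of both TTA-1 groups, with a log2 difference of -0.86 ± 0.17 between KHM-5M and TTA-1 in DMSO. In GDC-0994 the difference between KHM-5M and TTA-1 was 3.93 ± 0.14 in the other direction.

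OLFML3 (ENSG00000116774) lies at chr1:113979391-114035572 on the plus strand, with 2821 exonic bases in 5 transcripts. It had 28.5, 26.1 and 23.7 CPM in KHM-5M GDC-0994 libraries, against 1.52, 1.44 and 2.12 CPM in KHM-5M DMSO libraries. The lowest treated library was 11.2 times the highest control library. The log2 fold change was 3.94 ± 0.19 (95% interval 3.54 to 4.34), or 15.4-fold, rank 57 of 16218. OLFML3 was close to undetected in TTA-1: the counts were 1, 0 and 0 in the GDC-0994 libraries and 0, 0 and 0 in the DMSO libraries. No count over the 3 TTA-1 DMSO libraries allows a level of up to 0.0646 CPM, taken as 3 counts over the group and covering counting error only. Both TTA-1 groups were at or under that floor, so no fold change is given and an effect of the inhibitor was not detectable at this depth. With GDC-0994, KHM-5M had 1399 counts over its 3 libraries and TTA-1 had 1, a ratio of 1165 scaled to library size (exact 95% counting interval 208.8 to 46060). In DMSO, KHM-5M had 89 counts and was at least 26.2-fold higher than TTA-1, whose level was set at the floor. OLFML3 thus differed between the lines already without the inhibitor, and in the opposite direction to the other 3 genes.

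RARRES2 (ENSG00000106538) lies at chr7:150338317-150341674 on the minus strand, with 1921 exonic bases in 5 transcripts. It had 17.3, 14.9 and 14.2 CPM in KHM-5M GDC-0994 libraries, against 2.31, 2.60 and 2.46 CPM in KHM-5M DMSO libraries. The lowest treated library was 5.48 times the highest control library, the smallest such gap of the 4 genes. The log2 fold change was 2.65 ± 0.19 (95% interval 2.26 to 3.05), or 6.29-fold, rank 198 of 16218. In TTA-1 it had 5.47, 4.21 and 4.91 CPM with GDC-0994 and 7.94, 4.87 and 7.82 CPM with DMSO. TTA-1 DMSO replicate 2 lay inside the range of the treated libraries, and the other DMSO libraries lay above it. The log2 fold change of -0.50 ± 0.19 (95% interval -0.89 to -0.11) did not pass the test over all genes (edgeR, adjusted p = 0.167), and 9.05% of genes were lower without overlap in TTA-1. Without TTA-1 DMSO replicate 2 it was -0.718 with an adjusted p of 0.00653 (edgeR), and over the alternatives run the adjusted p lay between 0.00653 and 0.467. The GC content of the RARRES2 transcript, 65.6%, exceeded that of 97.3% of the genes tested. Gene levels in TTA-1 DMSO replicates 1 and 2, each as a ratio to the other libraries of the group, followed GC content in opposite directions (r = 0.66 and -0.64 over 10968 genes), as did those in KHM-5M GDC-0994 replicates 1 and 3 (r = 0.56 and -0.51). With length and GC trends removed, the RARRES2 value in TTA-1 was -0.228 with an adjusted p of 0.467 (edgeR). In DMSO, RARRES2 was lower in KHM-5M than in TTA-1 by a log2 difference of -1.48 ± 0.20, and in GDC-0994 it was higher in KHM-5M by 1.67 ± 0.17.

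RARRES2 lies within AC005586.2, an RNA gene annotated on the plus strand, opposite to RARRES2, at chr7:150337483-150343346. Its class in the annotation is named sense-overlapping, and it shares 0 exonic bases with RARRES2. The library protocol in the labels has no step that marks the strand, so reads from the 2 genes cannot be told apart by strand. AC005586.2 had 159, 153 and 101 counts in KHM-5M GDC-0994 libraries, against 33, 26 and 27 in KHM-5M DMSO libraries. It rose in KHM-5M by a log2 fold change of 2.23 ± 0.20 (edgeR, adjusted p = 1.08e-07). In TTA-1 it had 75, 92 and 101 counts with GDC-0994 and 90, 83 and 70 with DMSO, and its log2 fold change of 0.20 ± 0.18 did not pass the test (edgeR, adjusted p = 0.610). Whether reads of one gene were counted for the other was not tested. CRISPLD2 overlaps AC025280.1, AC025280.2 and AC025280.3, which had at most 4 counts in a library, and OLFML3 overlaps AL591742.1 and AL591742.2, which had none. CRISPLD2 shares 98 exonic bases with AC025280.2 and 206 with AC025280.3, both on the opposite strand. Whether the shared bases affected the CRISPLD2 counts was not tested. SUSD2 has no overlapping gene in the annotation.

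SUSD2 (ENSG00000099994) lies at chr22:24181259-24189110 on the plus strand, with 5279 exonic bases in 2 transcripts. It had 4.11, 3.71 and 4.66 CPM in KHM-5M GDC-0994 libraries, against 0.282, 0.289 and 0.115 CPM in KHM-5M DMSO libraries. The control values rest on 5, 5 and 2 counts, against 78, 67 and 76 counts with GDC-0994, so SUSD2 has the least precise fold change of the 4 genes in KHM-5M. That log2 fold change was 4.14 ± 0.35 (95% interval 3.39 to 4.89), or 17.6-fold, rank 46 of 16218, and the lowest treated library was 12.8 times the highest control library. In TTA-1 the gene had 4.93, 3.41 and 3.66 CPM with GDC-0994 and 2.15, 1.12 and 1.96 CPM with DMSO, and every treated library was above every control library. SUSD2 rose in TTA-1 by a log2 fold change of 1.20 ± 0.26 (95% interval 0.65 to 1.75), or 2.29-fold (edgeR, adjusted p = 0.0155). It is 1 of the 192 genes, 1.18% of those tested, that rose in TTA-1, and without overlap 9.75% of genes were higher there. The count of 192 was 894 without TTA-1 DMSO replicate 2, 121 and 85 without TTA-1 DMSO replicates 1 and 3, 124, 98 and 82 without TTA-1 GDC-0994 replicates 1, 2 and 3, and 69 in a fit of the TTA-1 libraries alone. The call was lost without TTA-1 GDC-0994 replicate 1, at a log2 fold change of 1.005 (edgeR, adjusted p = 0.0776), and in a fit of the TTA-1 libraries alone, at 1.184 (edgeR, adjusted p = 0.0776). Over the alternatives run the adjusted p lay between 7.62e-04 and 0.0776. With length and GC trends removed the value was 1.404 (edgeR, adjusted p = 9.75e-04), and the SUSD2 transcript has a GC content of 63.4%, above that of 93.9% of the genes tested.

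**Figure D1:**
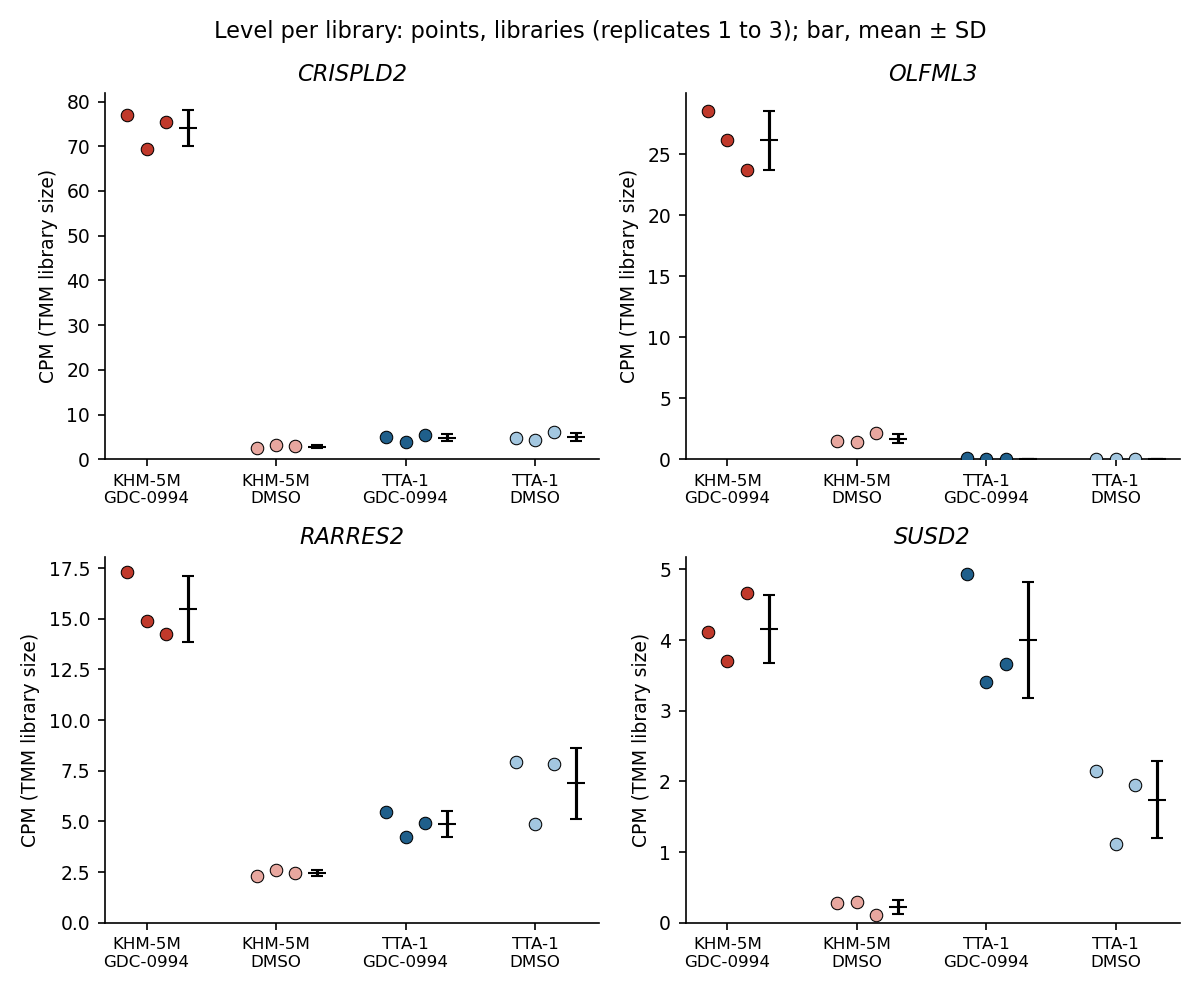
Level of each gene in CPM (vertical axes, linear and separate for each gene) in the 12 libraries, with points for replicates 1 to 3 from left to right and bars for the mean and SD of each group. CRISPLD2, OLFML3 and RARRES2 were highest in the 3 KHM-5M GDC-0994 libraries, while the SUSD2 points of KHM-5M GDC-0994 and TTA-1 GDC-0994 overlap.

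**Figure D2:**
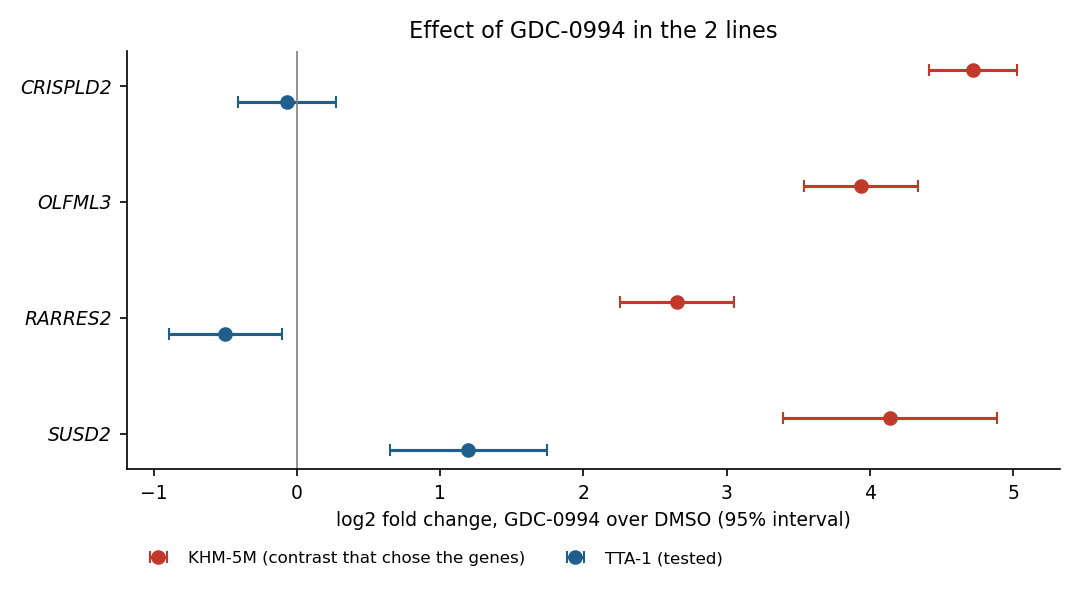
Log2 fold change of GDC-0994 over DMSO with its 95% interval from the edgeR fit, in KHM-5M (upper point of each gene) and TTA-1 (lower point). The KHM-5M intervals take no account of the choice of the genes by their difference in that line. The KHM-5M points lie between 2.65 and 4.72, the TTA-1 points between -0.50 and 1.20, and OLFML3 has no point in TTA-1 because both groups there were at or under the floor.

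All 4 genes were without overlap and higher with GDC-0994 in KHM-5M, where 30.4% of the genes tested were higher without overlap 24.6% were called higher and 49.8% were called in either direction. Since these libraries chose the genes, the count says nothing further. Of the 3 genes with a value in TTA-1, 1 rose and none fell, beside 3.43% of genes called there in either direction. That share rests on 556 genes, a count that was 2620 without TTA-1 DMSO replicate 2, and 349, 311, 311 and 259 without TTA-1 DMSO replicate 1, TTA-1 DMSO replicate 3, TTA-1 GDC-0994 replicate 2 and TTA-1 GDC-0994 replicate 3. In bulk RNA, more cells with a transcript and more of that transcript per cell cannot be told apart. The effect in KHM-5M minus the effect in TTA-1 was 4.79 ± 0.22 for CRISPLD2, 3.15 ± 0.26 for RARRES2 and 2.94 ± 0.47 for SUSD2 on the log2 scale. These differences contain the KHM-5M libraries that chose the genes and were not tested; of all genes tested, 27.9% were called for this difference.

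**Figure D3:**
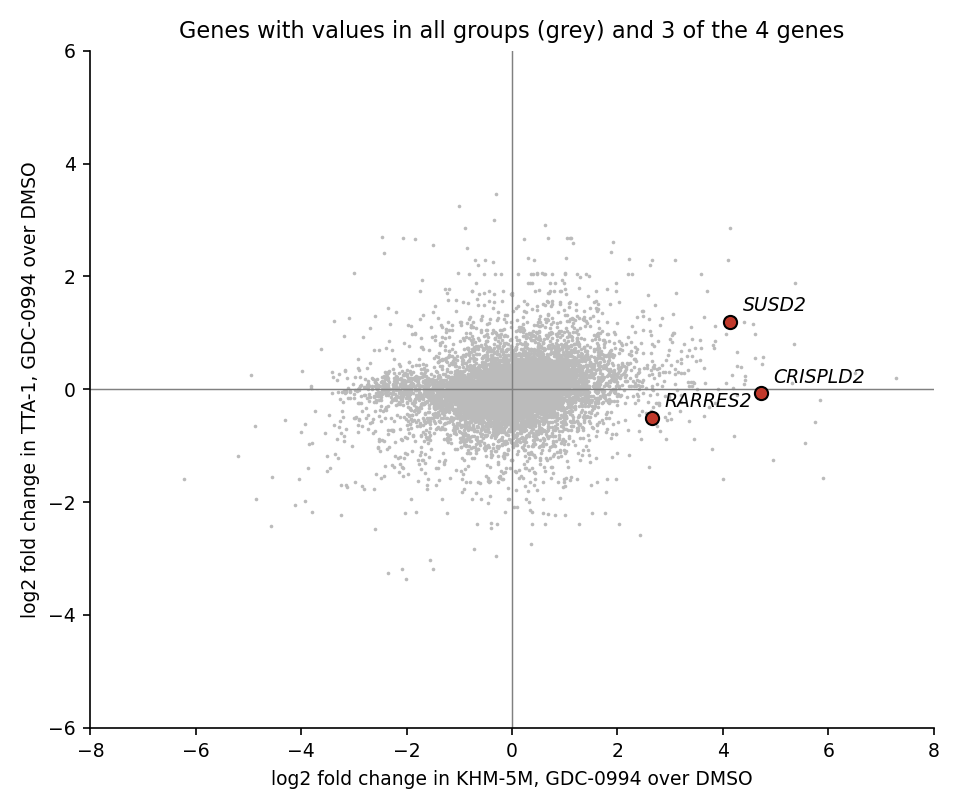
Log2 fold change of GDC-0994 over DMSO in TTA-1 (vertical) against that in KHM-5M (horizontal) for the genes with values in all groups (grey; 15222 of 16218, with 2 outside the axes) and for 3 of the 4 genes (red). CRISPLD2, at 4.72, and RARRES2, at 2.65, lie far to the right at TTA-1 values of -0.07 and -0.50, and SUSD2 lies at 4.14 in KHM-5M and 1.20 in TTA-1.

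Per kilobase of exonic bases, CRISPLD2, OLFML3 and RARRES2 reached similar levels in treated KHM-5M cells. These lengths are 7965, 2821 and 1921 bases, whereas the longest transcripts have 4586, 2063 and 1907 bases, in the same order. The comparison between genes therefore depends on the length used, and levels per transcript length were not computed. The mean was 9.34 ± 0.506 FPKM for CRISPLD2, 9.32 ± 0.948 FPKM for OLFML3 and 8.11 ± 0.909 FPKM for RARRES2 (SD, n = 3), above 73.1%, 73% and 69.9% of the genes tested. SUSD2 stayed a low transcript at 0.793 ± 0.0848 FPKM in those cells, above 24.2% of genes. In KHM-5M DMSO libraries RARRES2 was the most abundant of the 4 at 1.26 ± 0.0690 FPKM, with OLFML3 at 0.593 ± 0.126, CRISPLD2 at 0.347 ± 0.0421 and SUSD2 at 0.0427 ± 0.0186 FPKM. In TTA-1, RARRES2 was again the highest, at 2.45 ± 0.319 FPKM with GDC-0994 and 3.47 ± 0.872 FPKM with DMSO. CRISPLD2 had 0.590 ± 0.103 and 0.618 ± 0.105 FPKM in the TTA-1 GDC-0994 and DMSO groups, and SUSD2 had 0.734 ± 0.148 and 0.320 ± 0.1002 FPKM.

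The order of the 4 groups was the same for CRISPLD2 and RARRES2: KHM-5M GDC-0994 was highest, the TTA-1 groups overlapped in the middle, and KHM-5M DMSO was lowest. For SUSD2 the KHM-5M and TTA-1 groups with GDC-0994 overlapped at the top, with a log2 difference of 0.05 ± 0.23 (95% interval -0.44 to 0.54), and TTA-1 DMSO stood above KHM-5M DMSO. In DMSO the log2 difference of SUSD2 between KHM-5M and TTA-1 was -2.89 ± 0.40. For OLFML3 the KHM-5M groups stood above both TTA-1 groups. Across the 12 libraries, which share the same 4 groups, Pearson's r of log2 CPM was 0.909 for CRISPLD2 with RARRES2 and 0.025 for OLFML3 with SUSD2, and the other pairs lay between 0.472 and 0.778.

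Genes whose levels followed each of the 4 most closely were named as the 3 protein-coding genes with the highest r over the 12 libraries, among 13259. For CRISPLD2 they were MAP1LC3C, an autophagy gene of the LC3 family (r = 0.9921), GPR107 (0.9904) and VSIR, an immune checkpoint protein of the cell surface (0.9904). MAP1LC3C had 59.8 CPM in KHM-5M GDC-0994, 0.651 in KHM-5M DMSO, 1.42 in TTA-1 GDC-0994 and 1.16 in TTA-1 DMSO, highest in KHM-5M GDC-0994 and lowest in KHM-5M DMSO, as CRISPLD2 was. For OLFML3 they were CTSO, a lysosomal cathepsin (0.9981), TPM1, an actin-binding tropomyosin (0.9972), and TMSB4X, an actin-sequestering thymosin (0.9967). For RARRES2 they were SCAMP2, a carrier protein of secretory membranes (0.9732), MYOF, a membrane repair protein (0.9693), and DAZAP2 (0.967). For SUSD2 they were DOCK3 (0.9781), PTGR1, a reductase that inactivates leukotriene B4 and prostaglandins (0.9752), and the RAS-related GTPase MRAS (0.9746). With 4 groups of 3 libraries, such values mostly describe the pattern of the group means.

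Genes related to each protein were read from lists that do not contain the 4 genes, beside a background of 24.6% of genes rising and 25.1% falling in KHM-5M and 1.18% rising and 2.24% falling in TTA-1. The median log2 fold change over all genes was 0.021 in KHM-5M and 0.011 in TTA-1. In these medians, genes without a count in 1 group were set at a bound of 3 counts, and genes at or under 3 counts in both groups were left out. Of the CAP superfamily, 3 of 11 genes were expressed enough to be tested. GLIPR1 and GLIPR2, which share the CAP fold with CRISPLD2, rose in KHM-5M by 0.74 ± 0.11 (edgeR, adjusted p = 3.14e-05) and 0.71 ± 0.12 (edgeR, adjusted p = 1.16e-04). CRISPLD1, the remaining gene tested, did not pass the test in KHM-5M, at 0.31 ± 0.13 (edgeR, adjusted p = 0.0649). It was called higher there in 13 of 23 alternatives. None of the 3 passed the test in TTA-1, where CRISPLD1 had at most 5 counts in a library. The medians were 0.71 in KHM-5M and 0.26 in TTA-1.

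Glucocorticoid responsive genes moved both ways in KHM-5M: of 13 tested out of 15, 7 rose and 3 fell, with a median of 0.34. CEBPD, a transcription factor of the C/EBP family, had 136 ± 13.8 CPM with GDC-0994 and 38.7 ± 4.70 CPM with DMSO in KHM-5M, and rose by 1.82 ± 0.18 (edgeR, adjusted p = 3.00e-07). The transcription factor KLF9 rose by 1.02 ± 0.16 (edgeR, adjusted p = 4.71e-05). FKBP5, a chaperone of the glucocorticoid receptor, fell by 1.22 ± 0.08 (edgeR, adjusted p = 2.34e-09). ERRFI1, a feedback inhibitor of the EGF receptor, fell by 0.38 ± 0.07 (edgeR, adjusted p = 2.12e-04). In TTA-1 none rose and 2 fell, with a median of -0.13. ERRFI1 fell there by 0.45 ± 0.07 (edgeR, adjusted p = 9.87e-04). DUSP1, a phosphatase that turns off MAP kinases, fell by 0.39 ± 0.09 (edgeR, adjusted p = 0.0188), but the call was lost without TTA-1 DMSO replicate 3 (0.0645), without TTA-1 GDC-0994 replicate 1 (0.0804), with a replicate block (0.0534) and in a fit of the TTA-1 libraries alone (0.087), each value an adjusted p from edgeR.

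Olfactomedin domain genes, the family of OLFML3, had 7 of 12 members tested, of which 2 rose and none fell in each line. The medians were 0.62 in KHM-5M and 0.24 in TTA-1. OLFML2A, a secreted relative of OLFML3, had 72.7 ± 6.49 CPM with GDC-0994 and 11.7 ± 2.18 CPM with DMSO in KHM-5M, and rose by 2.63 ± 0.15 (edgeR, adjusted p = 3.05e-10). It also rose in TTA-1, at lower levels of 3.39 ± 1.11 CPM with GDC-0994 and 1.74 ± 0.185 CPM with DMSO, by 0.96 ± 0.25 (edgeR, adjusted p = 0.0426). That call was lost without TTA-1 GDC-0994 replicate 2 (0.219) or 3 (0.0556), without TTA-1 DMSO replicate 1 (0.13) or 3 (0.0899), without KHM-5M DMSO replicate 1 (0.059) or GDC-0994 replicate 2 (0.0623), with a replicate block (0.0557) and in a fit of the TTA-1 libraries alone (0.151), each value an adjusted p from edgeR. It was also lost in the 3 limma fits of FPKM (adjusted p = 0.0687, 0.24 and 0.445). ADGRL3, an adhesion receptor of neurons, rose in KHM-5M by 1.38 ± 0.35 (edgeR, adjusted p = 0.00385). OLFM1, a secreted neuronal glycoprotein, had no count in KHM-5M and rose in TTA-1, with 68.7 ± 2.14 CPM with GDC-0994 and 45.5 ± 1.54 CPM with DMSO, by 0.59 ± 0.09 (edgeR, adjusted p = 0.00264).

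Tolloid proteases, BMP ligands and BMP inhibitors were listed because the frog counterpart of OLFML3 brings together chordin and tolloid proteases. These genes did not move one way. Of 11 tested out of 13, 4 rose and 3 fell in KHM-5M, with a median of 0.03. BMP1, a tolloid-family protease that cuts chordin and procollagen, rose by 1.33 ± 0.13 (edgeR, adjusted p = 2.26e-07), while its relative TLL2 fell by 1.75 ± 0.35 (edgeR, adjusted p = 5.91e-04). Of the ligands, BMP4 rose by 2.09 ± 0.16 (edgeR, adjusted p = 1.71e-08) and BMP2 fell by 1.42 ± 0.21 (edgeR, adjusted p = 2.95e-05). CHRD, the chordin gene, averaged 0.0818 ± 0.142 CPM with GDC-0994 and 0.0376 ± 0.0651 CPM with DMSO in KHM-5M, against 1.01 ± 0.471 and 0.605 ± 0.378 CPM in the TTA-1 groups, in the same order. In TTA-1, 1 of the 11 fell and none rose, with a median of -0.04. NOG, which encodes the BMP inhibitor noggin, fell there by 1.63 ± 0.41 (edgeR, adjusted p = 0.0373). The NOG call was lost without TTA-1 DMSO replicate 1 (0.17) and without TTA-1 GDC-0994 replicate 1 (0.0516), 2 (0.137) or 3 (0.172), and without KHM-5M DMSO replicate 3 or GDC-0994 replicate 2 (0.0558 each), and in a fit of the TTA-1 libraries alone (0.087), as edgeR adjusted p-values. It was also lost with limma on log2(FPKM + 1), with a filter (adjusted p = 0.135) and without one (adjusted p = 0.288).

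For chemerin, the receptors and the proteases that trim it were listed. CMKLR1, the signalling receptor, averaged 0.0536 CPM in KHM-5M GDC-0994 libraries and had no count in the other groups. GPR1, a further chemerin receptor, averaged 5.88 ± 0.306 CPM in KHM-5M GDC-0994, 4.70 ± 0.962 CPM in KHM-5M DMSO, 4.33 ± 0.874 CPM in TTA-1 GDC-0994 and 3.92 ± 0.268 CPM in TTA-1 DMSO, and did not pass the test in either line. It was called higher in KHM-5M without KHM-5M DMSO replicate 1 (edgeR, adjusted p = 0.0334) and with length and GC trends removed (edgeR, adjusted p = 0.0492). CCRL2, which binds chemerin without signalling, averaged 1.36 ± 0.439 and 1.71 ± 0.253 CPM in the KHM-5M GDC-0994 and DMSO groups, and 4.25 ± 0.875 and 4.10 ± 0.622 CPM in the TTA-1 GDC-0994 and DMSO groups. Of 7 listed genes tested out of 16, none rose and 4 fell in KHM-5M, with a median of -0.35. PLAU, the urokinase that activates plasmin, a protease that trims chemerin, had 113 ± 6.96 CPM with GDC-0994 and 446 ± 4.42 CPM with DMSO in KHM-5M, and fell by 1.98 ± 0.07 (edgeR, adjusted p = 6.27e-13). Coagulation factor F12 fell by 1.35 ± 0.28 (edgeR, adjusted p = 7.44e-04). None of the 7 passed the test in TTA-1, with a median of 0.05, and PLAU there had 61.3 ± 3.16 CPM with GDC-0994 and 66.7 ± 1.06 CPM with DMSO.

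Retinoid genes were listed because RARRES2 was found as a retinoid-induced gene. Of 17 tested out of 23, 8 rose and 5 fell in KHM-5M, with a median of 0.22. CRABP2, which carries retinoic acid to its nuclear receptors, had 105 ± 9.28 CPM with GDC-0994 and 30.4 ± 2.00 CPM with DMSO, and rose by 1.79 ± 0.14 (edgeR, adjusted p = 1.50e-08). ALDH1A3, an enzyme that makes retinoic acid, fell by 1.11 ± 0.14 (edgeR, adjusted p = 4.84e-06), and NRIP1, a corepressor that retinoids induce, fell by 1.22 ± 0.16 (edgeR, adjusted p = 6.01e-06). None of the 17 passed the test in TTA-1, with a median of 0.04.

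Sushi domain genes, listed for SUSD2, had 8 of 13 entries tested, including LGALS1 for its partner galectin-1. In KHM-5M 2 rose and 4 fell, with a median of -0.32, and in TTA-1 none passed the test, with a median of -0.02. SUSD1 and SEZ6L2 rose in KHM-5M by 0.65 ± 0.10 (edgeR, adjusted p = 5.00e-05) and 0.85 ± 0.15 (edgeR, adjusted p = 1.63e-04). SRPX and SRPX2, secreted sushi proteins, fell by 0.85 ± 0.13 (edgeR, adjusted p = 3.47e-05) and 0.60 ± 0.12 (edgeR, adjusted p = 6.49e-04). LGALS1 was abundant throughout, at 1103 ± 83.3 CPM with GDC-0994 and 1189 ± 35.8 CPM with DMSO in KHM-5M, and 165 ± 4.59 CPM with GDC-0994 and 217.0 ± 70.2 CPM with DMSO in TTA-1, and did not pass the test in either line. It was called lower in TTA-1 with no filter on low counts (edgeR, adjusted p = 1.14e-06) and without TTA-1 DMSO replicate 2 (edgeR, adjusted p = 7.15e-05).

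Surface markers of mesenchymal stromal cells, of which SUSD2 is one in the endometrium, split in KHM-5M. Of 12 tested out of 13, 5 rose and 5 fell, with a median of -0.01. PDGFRB, a receptor of platelet-derived growth factor, had 95.5 ± 8.29 CPM with GDC-0994 and 29.8 ± 3.35 CPM with DMSO, and rose by 1.68 ± 0.12 (edgeR, adjusted p = 5.39e-09), and THY1 (CD90) rose by 0.50 ± 0.10 (edgeR, adjusted p = 3.35e-04). NT5E, the ecto-enzyme CD73, had 43.2 ± 3.01 CPM with GDC-0994 and 409 ± 3.89 CPM with DMSO, and fell by 3.24 ± 0.09 (edgeR, adjusted p = 1.00e-13). CD44, the hyaluronan receptor, fell by 1.90 ± 0.06 (edgeR, adjusted p = 3.45e-13). In TTA-1 none rose and 3 fell, with a median of 0.08. NT5E fell there by 2.23 ± 0.12 (edgeR, adjusted p = 7.13e-09) and the aminopeptidase ANPEP by 0.95 ± 0.11 (edgeR, adjusted p = 6.83e-05).

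**Figure D4:**
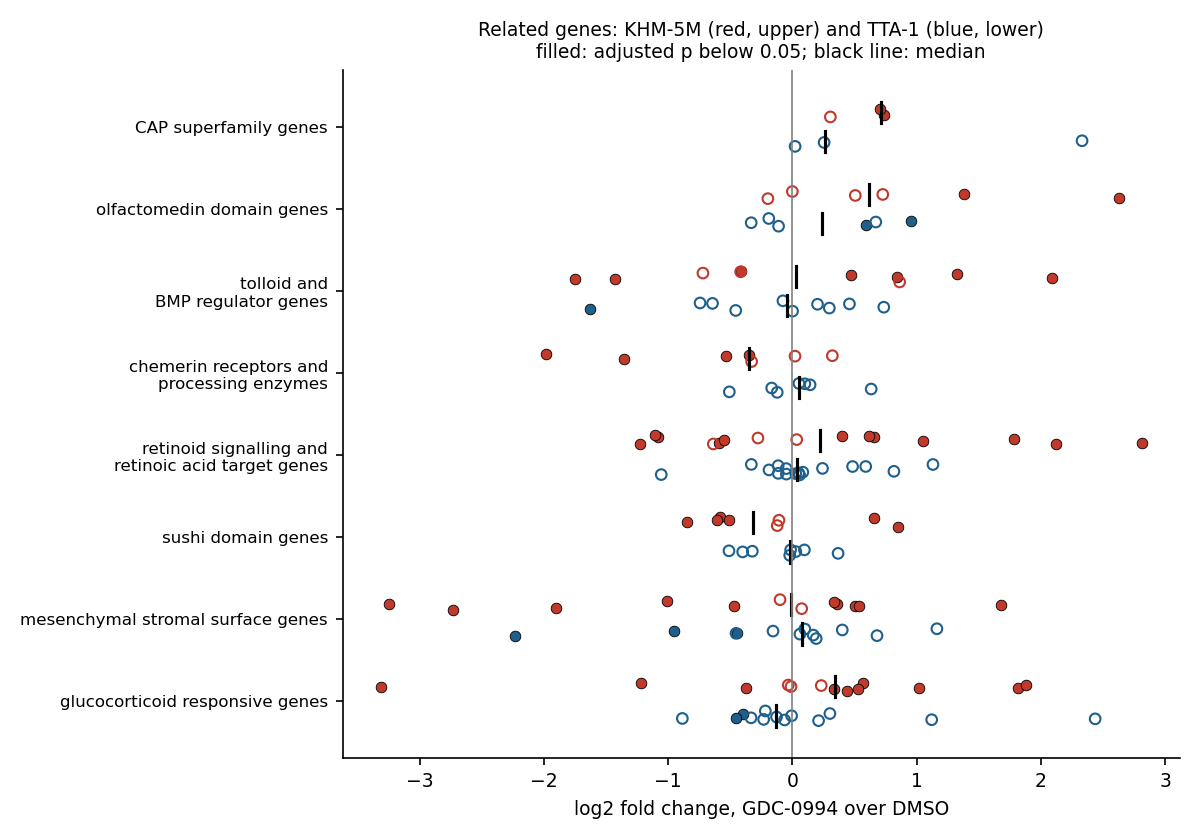
Log2 fold change of GDC-0994 over DMSO (horizontal) for the genes of 8 related lists (rows), with KHM-5M above TTA-1 in each row, filled points for adjusted p below 0.05 and black lines for the medians. Genes with no count in 1 group, or at most 3 counts in both, are not drawn (4 in KHM-5M and 3 in TTA-1). Filled points lie on both sides of 0 in 5 of the 8 lists in KHM-5M, and in TTA-1 most points are open.

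Markers of other cell types were read beside the 4 genes. The summed level of 8 fibroblast and stromal markers ranged over 1735 to 2094 CPM with GDC-0994 and 719 to 750.2 CPM with DMSO in KHM-5M, and over 4.15 to 5.15 CPM with GDC-0994 and 2.63 to 4.60 CPM with DMSO in TTA-1. Of the 4 markers tested, 3 rose in KHM-5M, beside 24.6% of all genes tested, and the median was 2.24. COL1A1 rose by 1.37 ± 0.08 (edgeR, adjusted p = 8.11e-10) and LUM by 3.12 ± 0.16 (edgeR, adjusted p = 8.43e-11). COL3A1 rose by 5.06 ± 0.81 (edgeR, adjusted p = 1.13e-04), with at most 1 count in a KHM-5M DMSO library. PDPN, a surface protein also called podoplanin, fell by 0.72 ± 0.17 (edgeR, adjusted p = 0.00210), a call lost with limma on log2(FPKM + 0.1) (adjusted p = 0.0787). None of the 4 passed the test in TTA-1. LUM had at most 2 counts in a TTA-1 library, and COL3A1 had at most 5 with GDC-0994 and 0 with DMSO. These counts were too low for the test to decide on either gene there. The collagen gene COL1A1 made up most of the sum, at 1816 CPM with GDC-0994 and 704 CPM with DMSO in KHM-5M. None of the 8 was at 0 in a KHM-5M group, although COL1A2, DCN and FAP each averaged below 0.3 CPM there, and DCN was at 0 in both TTA-1 groups. Sums of 6 endothelial markers were 2.70 to 3.98 CPM with GDC-0994 and 2.37 to 2.88 CPM with DMSO in KHM-5M, and 0.484 to 1.34 and 0.329 to 1.37 CPM in the TTA-1 GDC-0994 and DMSO groups. Of the 3 endothelial markers tested, 1 rose and 2 fell in KHM-5M. VWF rose by 1.23 ± 0.38 (edgeR, adjusted p = 0.0137), a call lost in 1 of 20 alternatives. KDR fell by 1.22 ± 0.48 (edgeR, adjusted p = 0.0473), a call lost in 16 of 20. PECAM1 also fell (edgeR, adjusted p = 0.0222), with at most 7 counts in a KHM-5M DMSO library and 0 with GDC-0994. The PECAM1 call was lost in 3 of 19 alternatives. Sums of 7 blood cell markers were 1.66 to 2.93 CPM with GDC-0994 and 1.80 to 2.41 CPM with DMSO in KHM-5M, and 0.415 to 0.735 CPM with GDC-0994 and 0.592 to 1.32 CPM with DMSO in TTA-1, and HBB was at 0 in all 12 libraries. Sums of 10 thyroid genes were 123 to 130.3 CPM with GDC-0994 and 205 to 222 CPM with DMSO in KHM-5M, and 427 to 449 and 411 to 449 CPM in the TTA-1 GDC-0994 and DMSO groups. Nearly all of each sum was 1 gene. PAX8, a transcription factor of thyroid cells, averaged 120.2 CPM with GDC-0994 and 210.2 CPM with DMSO in KHM-5M, and fell by 0.81 ± 0.09 (edgeR, adjusted p = 6.27e-07). DIO2, an enzyme that activates thyroid hormone, averaged 431 CPM with GDC-0994 and 423 CPM with DMSO in TTA-1. In KHM-5M DIO2 averaged 2.94 CPM with GDC-0994 and 0.153 CPM with DMSO, and rose by 4.19 ± 0.29 (edgeR, adjusted p = 3.85e-09). The part of these markers in the levels of the 4 genes was not tested.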

How the data were processed

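The 12 RNA-seq libraries form 4 groups of 3 (2 lines, each with GDC-0994 or DMSO). Per the labels' protocols, mRNA was taken on poly-T beads and copied from random hexamers, without strand marking. The build was GRCh38, and the tools were featureCounts 1.5.0-p3, HISAT2 2.0.5 and CASAVA, per the submitters' processing notes, which give no roles here. The deposited counts are raw and whole, and their totals differ between libraries. The deposited FPKM table holds the authors' counts divided by gene length and by a library size, which was 0.975 to 1.08 times the total count (relative error at most 4.85e-07). No 2 libraries held identical values, and 0 columns were without a sample.

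Counts were fitted with edgeR 4.0.16 in R 4.3.3: filterByExpr (minimum count 10, minimum total 15), TMM scaling, and glmQLFit with glmQLFTest in 1 model of all 12 libraries with 8 residual degrees of freedom. Contrasts were the treatment effect (GDC-0994 over DMSO) per line, the difference of these effects, and KHM-5M over TTA-1 in each treatment. Tests of CRISPLD2, RARRES2 and SUSD2 were made in TTA-1 only, and no test of OLFML3 is given. The procedure was tested on simulated data with known changes. These data had the same dispersion for every gene and no GC trend, so they do not cover the GC trends seen between these libraries. Gene positions are those of the deposited table, and transcripts those of GENCODE 29. CMKLR1 and other genes below the filter are given as levels only.

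The 4 genes and all gene lists were chosen with earlier results of these data known. The text names the 4 genes, up to 2 risen and 2 fallen members per related list and comparison by smallest p, the 3 best correlated genes, overlapping genes, and receptors or partners. A gene that this rule takes is not reported here. COL1A1, COL1A2, COL3A1, LUM, DCN, FAP, PDPN, VWF, KDR, PECAM1, PAX8, DIO2, CHRD, CRISPLD1 and EPHA4 were added after their values were seen.

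Alternatives were the size factors and the Wald test of DESeq2 1.42.0, library totals, no filter, a stricter filter (mean count of 50, with 1 CPM reached by 3 libraries), separate fits for each comparison's groups, a replicate block, and leaving out each library. FPKM were tested with limma 3.58.1 at a pseudocount of 1, both unfiltered and for genes at 1 FPKM in 3 libraries, and at a pseudocount of 0.1 for the filtered genes. Removal of length and GC trends was chosen after seeing the data. Libraries with the same replicate number were not treated as pairs, since the correlations of their deviations from the group means lay between -0.045 and 0.054. All 3 KHM-5M GDC-0994 samples carry the same column name in the labels, so their columns were matched by the replicate number in the titles.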

Additional observations from a re-analysis of the deposited data

Results flagged for a closer look

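The effect of GDC-0994 differed between the lines for 18 of the 30 genes that the naming rule takes from the related lists, beside 27.9% of all genes tested, by edgeR's quasi-likelihood test of the KHM-5M effect minus the TTA-1 effect, adjusted over 16218 genes. The differences below are on the log2 scale, with 3 libraries per group. The named genes were taken by smallest p within a line, so their share is raised by that choice.

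Among secreted proteins and their regulators, the difference was 1.67 ± 0.30 for OLFML2A (adjusted p = 4.31e-04), 0.72 ± 0.21 for GLIPR1 (adjusted p = 0.0165), 1.63 ± 0.22 for BMP4 (adjusted p = 3.08e-05), 1.33 ± 0.18 for BMP1 (adjusted p = 3.41e-05), -1.86 ± 0.10 for PLAU (adjusted p = 3.09e-10) and -0.88 ± 0.20 for SRPX (adjusted p = 0.00324). Among surface proteins it was 1.00 ± 0.35 for PDGFRB (adjusted p = 0.0436), 0.87 ± 0.26 for SEZ6L2 (adjusted p = 0.0174), 0.85 ± 0.15 for ANPEP (adjusted p = 3.80e-04), -1.01 ± 0.15 for NT5E (adjusted p = 8.30e-05) and -1.45 ± 0.09 for CD44 (adjusted p = 1.46e-09).

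Among retinoid genes it was 1.20 ± 0.26 for CRABP2 (adjusted p = 0.00258), -1.06 ± 0.21 for ALDH1A3 (adjusted p = 9.27e-04) and -1.31 ± 0.22 for NRIP1 (adjusted p = 2.86e-04). Among glucocorticoid responsive genes it was 2.05 ± 0.26 for CEBPD (adjusted p = 1.26e-05), 1.14 ± 0.38 for KLF9 (adjusted p = 0.0316), 0.73 ± 0.12 for DUSP1 (adjusted p = 2.48e-04) and -1.43 ± 0.11 for FKBP5 (adjusted p = 5.67e-08). NT5E fell in both lines and further in KHM-5M, whereas DUSP1 rose in KHM-5M by 0.34 (edgeR, adjusted p = 0.00382) and fell in TTA-1. The SEZ6L2 call was lost without TTA-1 DMSO replicate 3 (0.0604). The KLF9 call was lost without KHM-5M GDC-0994 replicate 2 (0.0616), KHM-5M DMSO replicate 2 (0.0516), TTA-1 GDC-0994 replicate 1 (0.083) or 3 (0.0625), or TTA-1 DMSO replicate 3 (0.183). The PDGFRB call was lost without KHM-5M GDC-0994 replicate 1 (0.0651) or 3 (0.0501), KHM-5M DMSO replicate 1 (0.0527) or 2 (0.0602), TTA-1 GDC-0994 replicate 1 (0.09) or 2 (0.0697), or TTA-1 DMSO replicate 1 (0.311), each value an adjusted p from edgeR.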

How the results depend on the processing

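On the log2(FPKM + 1) scale, which compresses low genes by construction, the KHM-5M effects were 2.94 for CRISPLD2, 2.694 for OLFML3 and 2.005 for RARRES2, with or without the filter, and 0.781 for SUSD2 without it; SUSD2 did not pass the FPKM filter or the stricter count filter. At log2(FPKM + 0.1) CRISPLD2 was 4.404. With length and GC trends removed RARRES2 was 2.797. Leaving out 1 library gave 4.657 to 4.827 for CRISPLD2, 3.864 to 4.156 for OLFML3, 2.564 to 2.744 for RARRES2 and 3.852 to 4.357 for SUSD2. In TTA-1, leaving out 1 library gave -0.191 to 0.073 for CRISPLD2, -0.718 to -0.395 for RARRES2 and 0.94 to 1.364 for SUSD2. SUSD2 there missed the threshold in a fit of the TTA-1 libraries alone (1.184, edgeR adjusted p = 0.0776) and on log2(FPKM + 1) (0.393, limma adjusted p = 0.0601); the cause was not tested. Differences of the effects on log2(FPKM + 1) were 2.966 for CRISPLD2 (4.463 at + 0.1), 2.363 for RARRES2 and 0.388 for SUSD2, and leaving out 1 library gave 3.067 to 3.398 for RARRES2. KHM-5M over TTA-1 on that scale was 2.703 for CRISPLD2 and 1.399 for RARRES2 in GDC-0994, and -0.263, -0.964 and -0.337 for CRISPLD2, RARRES2 and SUSD2 in DMSO.

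The number of genes called in TTA-1, 556, was 915 with DESeq2, 1206 with no filter, 206 in a fit of the TTA-1 libraries alone, 341 with limma on log2(FPKM + 1) without a filter, 1002 with length and GC trends removed, and 259 to 2620 with 1 library left out, the highest without TTA-1 DMSO replicate 2. List genes called in TTA-1 numbered 16, and 26 with the trends removed. In KHM-5M, 8069 genes were called, and 6816 to 9132 over the alternatives. With a replicate block, SUSD2 was 1.209 in TTA-1 (edgeR adjusted p = 0.0171), and 529 genes were called there; the block changed no call of the 4 genes, and of the named related genes those of OLFML2A and DUSP1 in TTA-1 and of the PDGFRB difference (adjusted p = 0.0544). Of 1145 values of 51 named related results, 1107 kept their direction and side of the threshold, 38 lost the call and 0 reversed. The 38 lay in 6 results: DUSP1, NOG and OLFML2A in TTA-1, and the differences between the lines for KLF9, PDGFRB and SEZ6L2. Since these genes were named by smallest p among called genes, the share kept is raised by that choice. Low counts limit SUSD2 in KHM-5M DMSO and OLFML3 in TTA-1. No line contrast was computed with the block, which lies within a line.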
